A study of Mus musculus with 26 samples.

Results

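Transcripts of 57 cell cycle genes were followed in regulatory and conventional CD4 T cells during active EAE, the experimental encephalomyelitis that serves as a model of multiple sclerosis in mice. The genes were taken from a list of gene symbols and all 57 were among the 24848 genes listed for each library. All 57 also passed the filter on low counts that left 13500 genes for testing. They were divided by known role into 16 genes of DNA replication, 24 genes of mitosis, 8 genes of the cyclin-CDK engine and its brakes, 5 transcription factor genes and 4 further genes. The samples were CD4 T cells of C57BL/6 mice with active EAE at day 14, purified as Foxp3-positive regulatory cells (Treg) or Foxp3-negative conventional cells (Tconv). Each population was taken from the CNS (central nervous system) and from the draining lymph node (dLN). In the mice named icKO here the genotype was Foxp3Cre-ERT2 x Tnfrsf1bFlox/Flox, and in the controls (Ctrl) it was Foxp3Cre-ERT2. Both genotypes therefore carried the Foxp3-driven, tamoxifen-dependent Cre, and both received tamoxifen from day 7 to day 14. Tnfrsf1b encodes TNFR2, a receptor for tumour necrosis factor, and Cre driven from Foxp3 acts in cells that express Foxp3. There were 3 libraries, labelled as separate mice, in each of the CNS Treg icKO, CNS Treg Ctrl, dLN Treg icKO, dLN Treg Ctrl, dLN Tconv icKO and dLN Tconv Ctrl groups, and 4 in each of CNS Tconv icKO and CNS Tconv Ctrl.

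A dividing cell copies its DNA in S phase and separates the copies in mitosis, and each step uses its own set of proteins. E2F transcription factors drive the genes of replication from late G1 onwards, whereas many genes of mitosis are transcribed later, in G2, through CHR promoter elements bound by complexes that contain B-MYB (Mybl2) and FOXM1. Treg cells are known to divide more than most other CD4 T cells of a resting mouse, and activated T cells of either kind enter the cycle after antigen contact in lymph nodes.

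The 25 libraries used for the tests held 12.4 to 18.5 M expected counts, with 11089 to 14259 genes above 0 in each. A 26th, labelled dLN Tconv icKO replicate 3, had 7.78 M counts and 6005 genes above 0, and 22 of the 57 members were at 0 in it. Its highest rank correlation with any library was 0.70, where every other library reached at least 0.94. It was left out, and each count of called members is also given with it, next to the share of all genes called in either direction in that fit. In 5 CNS Tconv libraries (Ctrl replicates 3 and 4, icKO replicates 2, 3 and 4) the name of the deposited table carried the code of the other genotype. The labels were followed, and for CNS Tconv the class medians are given with and without these libraries. Without them CNS Tconv icKO held replicate 1 alone and CNS Tconv Ctrl replicates 1 and 2. Counts of called members without them are therefore given only for comparisons of Ctrl groups. Foxp3, which defines the sort, had mean CPM (TMM-normalised counts scaled to library size) of 50.2 in CNS Treg icKO, 36.0 in CNS Treg Ctrl, 42.6 in dLN Treg icKO and 48.1 in dLN Treg Ctrl. No Tconv group averaged more than 1.02 CPM. Tnfrsf1b, the floxed gene, averaged 406 ± 89.6 CPM in CNS Treg icKO and 610.0 ± 137 CPM in CNS Treg Ctrl (SD, n = 3 each), with an adjusted p of 0.56 in edgeR's quasi-likelihood test. Its level was 619 ± 1.198 CPM in dLN Treg icKO, against 795 ± 60.5 CPM in dLN Treg Ctrl (adjusted p = 1). In CNS Tconv the icKO libraries were at 343 ± 51.9 CPM and the Ctrl libraries at 208 ± 25.9 CPM (SD, n = 4 each, adjusted p = 0.0091). Counts over a whole gene can include reads from exons outside a floxed part, so they do not measure the deletion.

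Cell cycle transcripts were most abundant in dLN Treg libraries of both genotypes. The 57 genes together made up 5407 to 7275 TPM (the transcript level scaled for gene length and library size) in the 6 dLN Treg libraries, 1848 to 3972 TPM in the 6 CNS Treg libraries, 1302 to 3339 TPM in the 8 CNS Tconv libraries and 1922 to 2898 TPM in the 5 dLN Tconv libraries. The lowest dLN Treg library thus lay above the highest of all other libraries. In bulk samples fewer cells in the cycle and less RNA per cycling cell cannot be told apart.

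**Figure D1:**
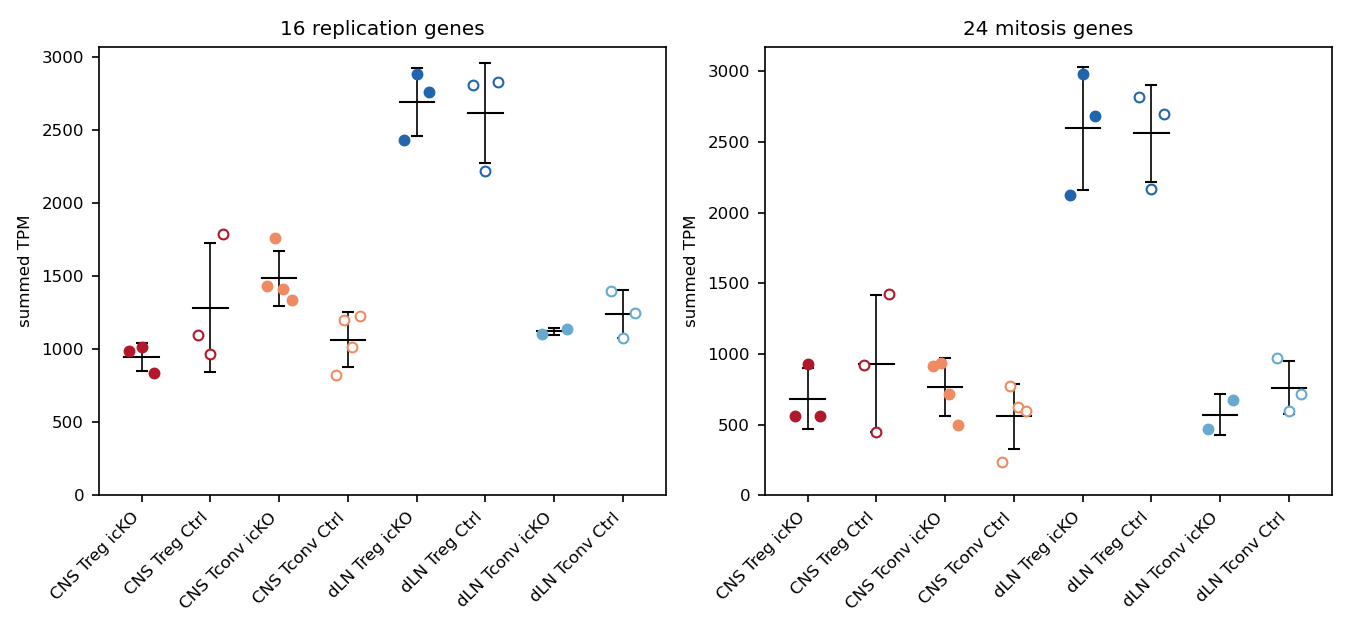
Summed TPM of the 16 replication genes (left) and the 24 mitosis genes (right) in each of the 25 libraries, by group. Filled points are icKO and open points Ctrl libraries, and bars give the mean ± SD. The 6 dLN Treg libraries lie above the other 19 in both panels, with 2221 to 2880 TPM for replication and 2126 to 2980 TPM for mitosis genes.

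Replication genes summed to 2432.6, 2879.9 and 2757 TPM in the dLN Treg icKO libraries and to 2804, 2221 and 2825 TPM in the dLN Treg Ctrl libraries. In the CNS Treg cells the same sum was 984, 1015 and 837 TPM in icKO and 1093, 966 and 1787 TPM in Ctrl libraries. Mitosis genes summed to 2126, 2980.3 and 2686 TPM in dLN Treg icKO and 2816, 2167 and 2696 TPM in dLN Treg Ctrl, against 557, 931 and 563 TPM in CNS Treg icKO and 921, 450.4 and 1422 TPM in CNS Treg Ctrl libraries. The CNS Treg Ctrl group was the most uneven, with replicate 3 high and replicate 2 low for both classes, while the lymph node groups were closer together. Per length, few genes led in the groups. Cks1b, a CDK-binding subunit, averaged 459 ± 22.9 TPM in dLN Treg icKO and 436 ± 68.5 TPM in dLN Treg Ctrl (SD, n = 3 each). Pcna, the sliding clamp of the replication fork, had the highest TPM of the 57 genes in CNS Treg icKO (185 ± 6.9), CNS Tconv icKO (259.6 ± 26.1, n = 4), CNS Tconv Ctrl (218 ± 58.6, n = 4), dLN Tconv icKO (219 ± 0.23, n = 2) and dLN Tconv Ctrl (213 ± 15.4) libraries. Cit, a kinase of cytokinesis, was the lowest of the 57 in 7 of the 8 groups and the third lowest in dLN Treg Ctrl, where it averaged 9.85 TPM.

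**Figure D2:**
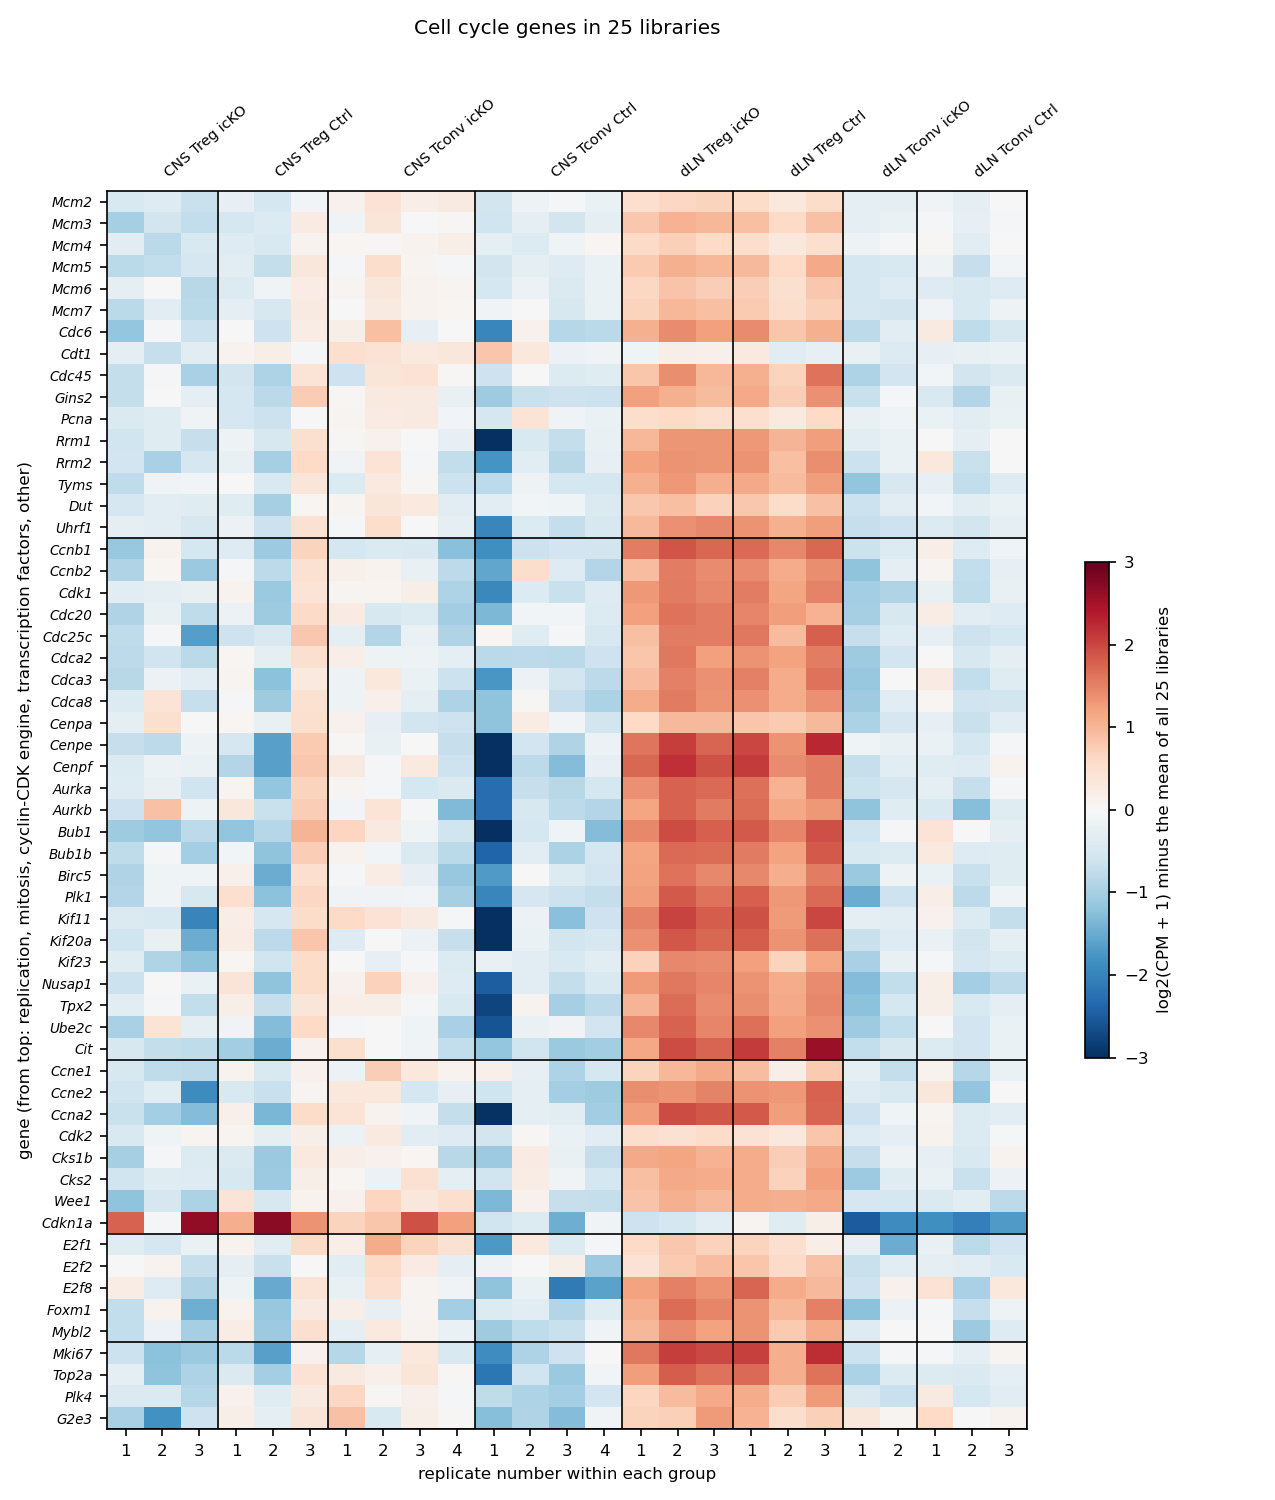
Level of each of the 57 genes in the 25 libraries, as log2(CPM + 1) minus the gene's mean over all libraries, with genes in rows by class and libraries in columns by group. The 6 dLN Treg columns stand above the rest for most genes, and the lowest mitosis values are in CNS Tconv Ctrl replicate 1, where Cenpe, Cenpf and Bub1 were at 0.

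Mki67 (chr7:135689784-135716361 in GRCm38), which encodes the proliferation antigen Ki-67, had 269.5, 376 and 355 CPM in dLN Treg icKO and 369.6, 191 and 412 CPM in dLN Treg Ctrl libraries. It had 56.4, 37.1 and 40.5 CPM in CNS Treg icKO and 50.2, 28.2 and 96.6 CPM in CNS Treg Ctrl libraries. In Tconv cells it had 48.6, 71.7, 111 and 64.0 CPM in CNS icKO libraries, against 23.6, 46.3, 57.3 and 88.0 CPM in CNS Ctrl libraries, and 56.5 and 84.8 CPM in dLN icKO libraries, against 85.3, 72.1 and 94.7 CPM in dLN Ctrl libraries. Every dLN Treg library was above every other library. Among the other 6 groups CNS Treg icKO lay below both dLN Tconv groups, and CNS Treg Ctrl and both CNS Tconv groups overlapped with all the rest.

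Cdk1 (chr10:69335146-69352938), the kinase that starts mitosis, was also highest in dLN Treg. It had 118, 141 and 129.6 CPM in dLN Treg icKO and 139, 109 and 135 CPM in dLN Treg Ctrl libraries, against 37.0, 39.1 and 40.7 CPM in CNS Treg icKO and 51.2, 21.4 and 63.4 CPM in CNS Treg Ctrl libraries. In CNS Tconv it had 50.3, 50.4, 54.1 and 24.6 CPM in icKO and 11.7, 35.4, 29.6 and 36.2 CPM in Ctrl libraries, and in dLN Tconv 22.7 and 24.9 CPM in icKO and 40.7, 27.3 and 40.4 CPM in Ctrl libraries. The order below dLN Treg was not resolved, since the ranges of CNS Treg Ctrl, CNS Tconv icKO and CNS Tconv Ctrl overlap.

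Pcna (chr2:132249162-132253314) spanned a narrower range. Its levels were 245, 258 and 242 CPM in dLN Treg icKO, 243, 207 and 256 CPM in dLN Treg Ctrl libraries, and 126, 131 and 159 CPM in CNS Treg icKO and 119, 109 and 173 CPM in CNS Treg Ctrl libraries. CNS Tconv had 179, 200.3, 206 and 159 CPM in icKO and 119, 227, 158 and 147 CPM in Ctrl libraries, and dLN Tconv 144 and 154 CPM in icKO and 148, 134 and 149 CPM in Ctrl libraries. CNS Tconv Ctrl replicate 2 reached into the dLN Treg range, and CNS Tconv icKO lay above both dLN Tconv groups.

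Cdkn1a (chr17:29090976-29100727) encodes p21, an inhibitor of cyclin-dependent kinases, and its levels were ordered differently. It had 104, 29.3 and 194 CPM in CNS Treg icKO and 64.8, 199.7 and 77.5 CPM in CNS Treg Ctrl libraries, against 19.2, 20.5 and 23.5 CPM in dLN Treg icKO and 31.9, 23.0 and 34.2 CPM in dLN Treg Ctrl libraries. CNS Tconv had 47.9, 54.5, 116 and 71.7 CPM in icKO and 19.3, 22.2, 10.3 and 27.6 CPM in Ctrl libraries, and dLN Tconv had 4.52 and 7.34 CPM in icKO and 7.65, 6.45 and 8.47 CPM in Ctrl libraries. All dLN Tconv libraries were below all others, and the CNS Treg libraries varied most within a group.

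**Figure D3:**
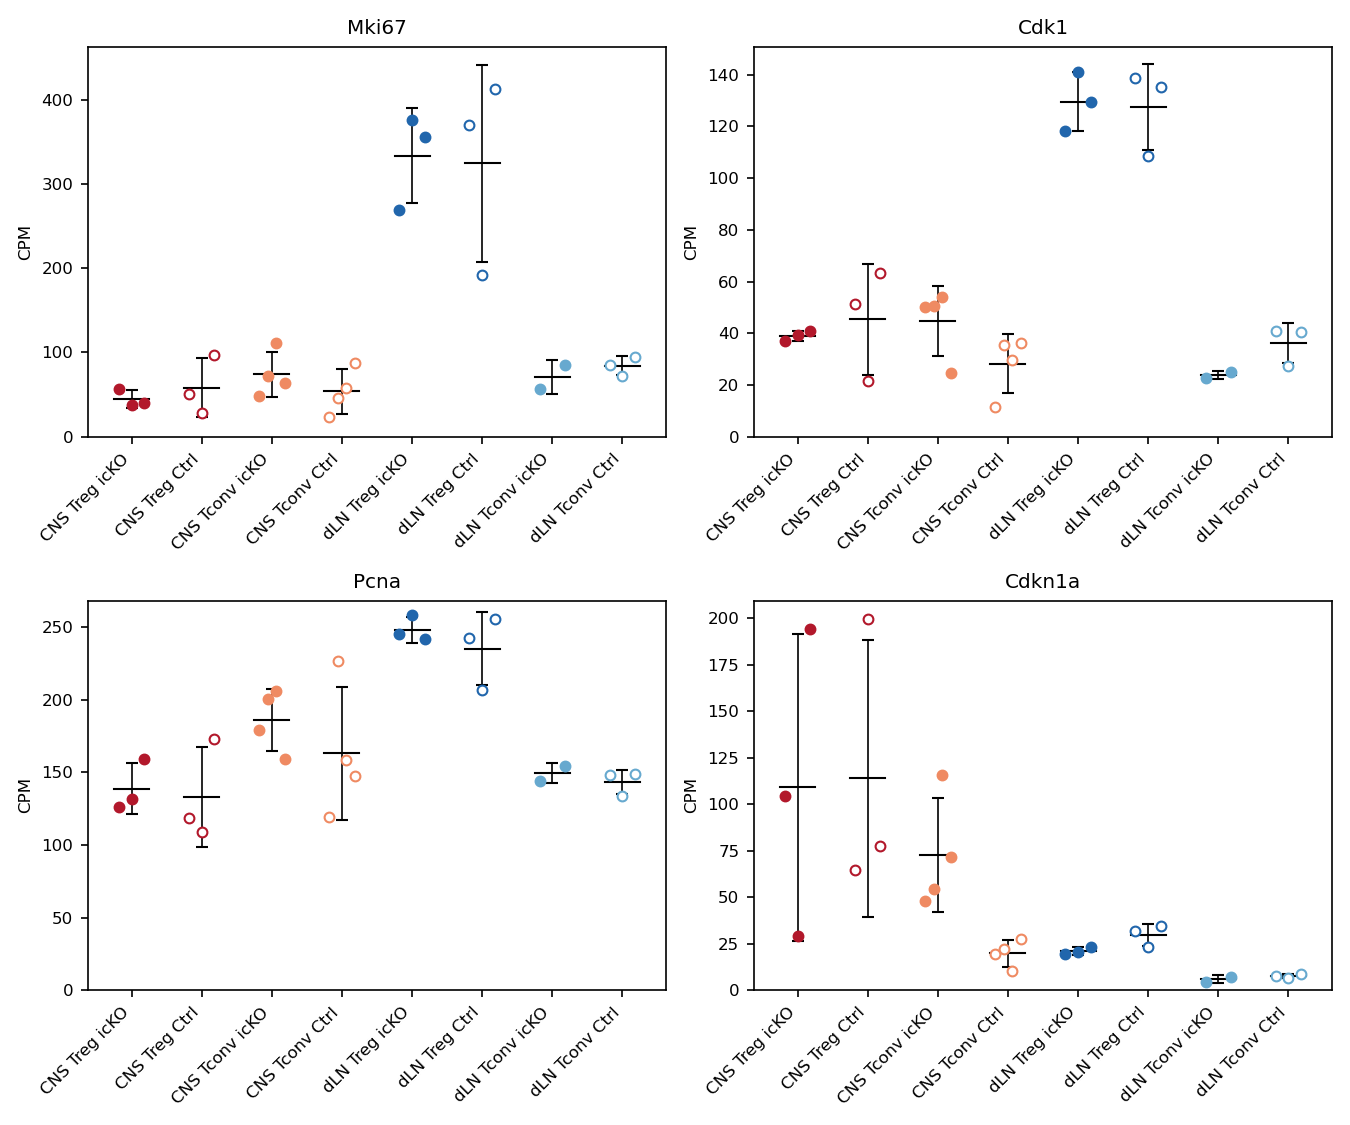
CPM of Mki67, Cdk1, Pcna and Cdkn1a in each of the 25 libraries by group, with the mean ± SD. Filled points are icKO and open points Ctrl libraries. Mki67 and Cdk1 separate the dLN Treg groups from all others, Pcna does so with 1 exception, and Cdkn1a reaches 199.7 CPM in a CNS Treg Ctrl library.

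The comparison of Treg with Tconv in the lymph node asks how far the cell types differ in cell cycle transcripts outside the inflamed tissue. In Ctrl mice 49 of the 57 members were higher in Treg and 0 lower, against 6.04% of the 13500 tested genes called higher and 5.48% called lower. Called means an adjusted p (Benjamini-Hochberg over all tested genes) under 0.05 in edgeR's quasi-likelihood test. By class, 15 of 16 replication, 20 of 24 mitosis, 8 of 8 engine, 3 of 5 transcription factor and 3 of 4 further genes were higher. The median log2 fold change was 1.15 for replication and 1.75 for mitosis genes, beside 0 for all tested genes. In icKO mice 49 members were again higher and 0 lower, against 5.44% of all tested genes higher and 4.47% lower, with medians of 1.43 and 2.18. The genotypes have no library in common but share the estimate of spread.

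The replication genes included the MCM2-7 helicase that unwinds DNA. Mcm6 had 627, 523 and 654 CPM in dLN Treg Ctrl and 288, 273 and 285 CPM in dLN Tconv Ctrl libraries, a log2 fold change of 1.09 ± 0.17 (SE, adjusted p = 0.00016). The groups did not overlap, and all 3 Treg libraries were the higher ones. For genes picked here and below for the smallest p, a lack of overlap in that same comparison adds no evidence. Tyms, which makes thymidylate for DNA synthesis, differed by 1.58 ± 0.26 and Uhrf1, which carries DNA methylation over to the new strand, by 1.67 ± 0.30. Mcm5 (1.21), Mcm3 (0.93) and Mcm7 (0.91) were also among the 6 replication genes with the smallest p. Cdt1, which loads the helicase onto origins, was the replication gene that was not called, with 62.5, 40.9 and 42.4 CPM in dLN Treg Ctrl and 42.5, 43.5 and 43.9 CPM in dLN Tconv Ctrl libraries and a log2 fold change of 0.17 ± 0.21 (adjusted p = 0.70).

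Among the mitosis genes Cdca2, a chromatin-bound targeting subunit of protein phosphatase 1, had the smallest p, with 60.2, 54.2 and 68.9 CPM in dLN Treg Ctrl and 23.4, 16.1 and 18.8 CPM in dLN Tconv Ctrl libraries (log2 fold change 1.65 ± 0.23, adjusted p = 4.2e-05). Cit had 38.1, 24.9 and 54.1 CPM in Treg and 5.91, 5.15 and 6.90 CPM in Tconv libraries, which is a log2 fold change of 2.70 ± 0.43. For both genes all Treg libraries lay above all Tconv libraries. Cdk1 (1.82), Kif23 (1.38), a kinesin of the central spindle, Ccnb1 (1.73), the cyclin B1 partner of Cdk1, and Aurka (1.77), a spindle pole kinase, were called as well. Cenpe, Cenpf, Bub1 and Kif11 had log2 fold changes of 1.74 to 2.23 and were not called, with SE of 0.69 to 0.74. All Treg libraries lay above all Tconv libraries for 55 of the 57 members in this comparison, these 4 among them. The same share over all tested genes was not computed. In CNS Tconv Ctrl replicate 1, which is in no lymph node comparison but enters the shared estimate of spread, Cenpe, Cenpf and Bub1 were at 0 and Kif11 was at 0.147 CPM. The part of that library in the SE of these genes was not tested.

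Wee1, the kinase that restrains Cdk1, had 45.5, 44.5 and 45.8 CPM in dLN Treg Ctrl and 14.8, 16.3 and 11.4 CPM in dLN Tconv Ctrl libraries (log2 fold change 1.68 ± 0.30, adjusted p = 0.00066). The Treg libraries were almost equal and far above all 3 Tconv libraries. Cks2 (1.39), Ccne2 (1.71), the cyclin E2 of S phase entry, Ccna2 (1.84), the cyclin of S phase and G2, and Cdkn1a (1.98) were called, as were Mybl2 (1.58), E2f2 (1.14) and Foxm1 (1.62). Mki67 (1.95 ± 0.42, adjusted p = 0.0034), Top2a (1.88), the topoisomerase that untangles chromosomes, and Plk4 (1.26), the kinase of centriole duplication, were called and G2e3, a ubiquitin ligase, was not (0.53 ± 0.37, adjusted p = 0.41). With the 26th library the counts were 6 in Ctrl mice (1.8% of all genes) and 11 in icKO mice (3.95% of all genes). Leaving out dLN Tconv Ctrl replicate 2 gave 27 in Ctrl mice, and leaving out dLN Tconv icKO replicate 1 or 2 gave 12 or 32 in icKO mice.

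In icKO mice the same comparison rested on 2 Tconv libraries, and its mitosis median depended on them. It was 2.53 without dLN Tconv icKO replicate 2 and 1.39 with the 26th library, where the replication median was 1.44 and the mitosis median of Ctrl mice 1.77. Mcm7 had 257, 321 and 302 CPM in dLN Treg icKO and 113 and 109.8 CPM in dLN Tconv icKO libraries (log2 fold change 1.397 ± 0.20, adjusted p = 0.0001). Every Treg library held more than both Tconv libraries. Tyms (1.97), Mcm6 (1.1998), Mcm3 (1.198), Mcm5 (1.46) and Mcm2 (0.88) followed by p, and Cdt1 was not called (0.40 ± 0.24, adjusted p = 0.35).

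Plk1, the kinase that drives several steps of mitosis, had 114, 173 and 148 CPM in dLN Treg icKO and 16.2 and 30.4 CPM in dLN Tconv icKO libraries (log2 fold change 2.64 ± 0.51, adjusted p = 0.0015). Its lowest Treg library was well above its highest Tconv library. Cdca2 (2.13), Cdk1 (2.44), Kif23 (1.82), Ccnb1 (2.28) and Cdc20 (2.22), an activator of the anaphase-promoting complex, were the others with the smallest p. E2f1, which drives S phase genes, was called in icKO mice (1.52, adjusted p = 0.042), as were Foxm1 (2.12), E2f2 (1.25) and Mybl2 (1.46). Cdkn1a was not (1.83 ± 0.61, adjusted p = 0.06). That a gene is called in 1 genotype only is no test of a difference between genotypes.

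Markers of B cells, of monocytes and macrophages and of CD8 T and NK cells had summed levels in dLN Treg that lay apart from those in dLN Tconv. Marker CPM, here and below, were scaled to the library total with no TMM factor. The 7 B cell markers summed to 66.0 to 77.6 CPM in dLN Treg icKO and 16.1 to 24.6 CPM in dLN Tconv icKO libraries, and to 70.3 to 71.4 CPM in dLN Treg Ctrl and 15.6 to 25.4 CPM in dLN Tconv Ctrl libraries. The 8 monocyte and macrophage markers summed to 476 to 709 CPM in dLN Treg icKO, against 138 to 155 CPM in dLN Tconv icKO, and to 193 to 820.1 CPM in dLN Treg Ctrl, against 161 to 172 CPM in dLN Tconv Ctrl libraries. Without Ccr2, a chemokine receptor that T cells also carry, the other 7 overlapped in Ctrl mice. They summed to 88.0 to 719.5 CPM in dLN Treg Ctrl and 53.0 to 103.4 CPM in dLN Tconv Ctrl libraries. In icKO mice they stayed apart, at 294.7 to 624.0 CPM in dLN Treg icKO and 83.5 to 103.6 CPM in dLN Tconv icKO libraries. The 8 CD8 T and NK cell markers summed to less in dLN Treg, at 43.5 to 60.2 CPM in dLN Treg icKO, against 167 to 176 CPM in dLN Tconv icKO, and at 38.0 to 53.0 CPM in dLN Treg Ctrl, against 134 to 184 CPM in dLN Tconv Ctrl. Of these, Prf1, Klrd1, Eomes and Ncr1 were lower in every dLN Treg library than in every dLN Tconv library. Prf1 had 2.01 to 4.74 CPM in dLN Treg and 63.1 to 81.9 CPM in dLN Tconv libraries. Cd8a, Cd8b1, Gzma and Klrb1c overlapped, with Cd8b1 at 25.7 to 39.0 CPM in dLN Treg and 23.4 to 43.7 CPM in dLN Tconv libraries. The B cell gene Ebf1 was at 0 in all dLN Treg Ctrl libraries, and Pax5 in all dLN Treg icKO libraries. The part of these transcripts in the cell type difference was not tested.

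Of 34 other replication genes 18 were higher in dLN Treg Ctrl than in dLN Tconv Ctrl and 0 lower, among them Gmnn (1.34), the inhibitor of Cdt1, Chaf1a (1.93), a histone chaperone, and Rfc5 (0.95), a subunit of the clamp loader. Of 42 other mitosis genes 29 were higher and 0 lower, led by Incenp (1.57), Kif22 (1.80) and Cdc25b (1.39). Of 13 D cyclins, their kinases and RB family genes, Cdk6 (1.27) and Rbl2 (0.88) were higher, and the cyclin genes Ccnd1 (-2.47) and Ccnd3 (-0.60) lower. The median log2 fold changes of these first 3 lists were 1.08, 1.60 and 0.30. Among 11 CDK inhibitors and antiproliferative genes Cdkn2c (1.77), encoding p18, was higher and Cdkn2d (-0.71), encoding p19, and Btg1 (-0.69) were lower.

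The next comparison sets Treg cells in the CNS against those in the draining node. In Ctrl mice 45 members were lower and 1 was higher in CNS Treg, against 8.55% of tested genes called lower and 13.3% called higher. In icKO mice 53 members were lower and 1 higher, against 9.41% and 13.1% of tested genes. The median log2 fold change in Ctrl mice was -1.10 for replication (15 of 16 lower) and -1.45 for mitosis genes (18 of 24 lower), beside 0.02 for all tested genes. In icKO mice it was -1.48 (15 of 16 lower) and -2.06 (23 of 24 lower), beside 0.04.

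Among replication genes Dut, which keeps uracil out of DNA, had 61.4, 38.9 and 82.4 CPM in CNS Treg Ctrl and 138, 117 and 147 CPM in dLN Treg Ctrl libraries, and fell by 1.14 on the log2 scale (SE 0.20, adjusted p = 0.00049). No CNS library reached the lowest dLN library. Mcm3 (-0.99), Mcm2 (-0.75), Mcm5 (-1.08), Mcm7 (-0.80) and Mcm4 (-0.67) were the other replication genes with the smallest p. In icKO mice Mcm3 had 93.6, 127 and 112 CPM in CNS Treg and 328, 388 and 374 CPM in dLN Treg libraries, a log2 fold change of -1.71 ± 0.18 (adjusted p = 1.6e-06). Cdt1 was again not called, at 0.16 ± 0.21 in Ctrl and -0.51 ± 0.21 in icKO mice (adjusted p = 0.65 and 0.085).

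Cit had 3.45, 2.27 and 8.94 CPM in CNS Treg Ctrl and 38.1, 24.9 and 54.1 CPM in dLN Treg Ctrl libraries (log2 fold change -2.99 ± 0.44, adjusted p = 7.9e-05). Cdca2 had 12.9, 14.9 and 12.7 CPM in CNS Treg icKO and 41.7, 70.5 and 55.5 CPM in dLN Treg icKO libraries (-2.05 ± 0.23, adjusted p = 5e-06). In both genes the highest CNS library was below the lowest dLN library. Ccnb1 (-1.74), Cdca3 (-1.61), Cdk1 (-1.49) and Cdca8 (-1.40), a subunit of the chromosomal passenger complex, were lower in Ctrl mice, and Kif23 (-2.05), Cit (-2.52), Ccnb1 (-2.19), Cdc20 (-2.09) and Aurka (-2.07) in icKO mice. Cenpa, the histone variant of centromeres, was the mitosis gene not called in either genotype, at -0.73 ± 0.28 in Ctrl and -0.77 ± 0.28 in icKO mice (adjusted p = 0.065 and 0.053).

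Ccne2 (-1.89), Cks2 (-1.43), Cks1b (-1.34), Wee1 (-1.11) and Ccna2 (-1.65) were the engine genes lower in CNS Treg Ctrl. In icKO mice Ccna2 had 58.3, 44.9 and 37.1 CPM in CNS Treg and 223, 362 and 340.3 CPM in dLN Treg libraries, which differ by -2.72 ± 0.50 on the log2 scale (adjusted p = 0.00057), and no CNS library came near the dLN range. Wee1 (-1.92), Ccne2 (-2.36), Ccne1 (-1.67) and Cks2 (-1.54) were also lower in icKO mice. Cdkn1a was the member that was higher, by 1.94 ± 0.50 in Ctrl and 2.37 ± 0.51 in icKO mice (adjusted p = 0.0082 and 0.0021). Of the transcription factors E2f2 (-1.07), Foxm1 (-1.48), Mybl2 (-1.13) and E2f8 (-1.61), a repressor of the E2F family, were lower in Ctrl mice, and E2f1 was not called (-0.30 ± 0.40, adjusted p = 0.63). Mki67 had a log2 fold change of -2.47 ± 0.43 in Ctrl and -2.90 ± 0.44 in icKO mice (adjusted p = 0.00039 and 8.4e-05). In the fit of 26 libraries 9 members were called in Ctrl mice (5.75% of all genes) and 16 in icKO mice (5.15% of all genes), although the added library is in neither comparison. Leaving out CNS Treg Ctrl replicate 2 gave 21 called members in Ctrl mice.

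Transcripts of other cell types also differed between these tissues. The summed level of 8 monocyte and macrophage markers was 2250 to 3469 CPM in CNS Treg icKO and 2648 to 3586 CPM in CNS Treg Ctrl, against 476 to 709 CPM in dLN Treg icKO and 193 to 820.1 CPM in dLN Treg Ctrl libraries, with 0 of the 8 at 0 in any of these groups. The 7 microglia markers summed to 1716 to 2145 CPM in CNS Treg icKO and 1768 to 2303 CPM in CNS Treg Ctrl, against 107 to 127 CPM in dLN Treg icKO and 95.3 to 148 CPM in dLN Treg Ctrl libraries, where Sall1 was at 0. The 7 T cell markers overlapped between tissues, at 4387 to 6122 CPM over the 6 CNS Treg libraries and 5064 to 5899 CPM over the 6 dLN Treg libraries. The part of these transcripts in the tissue difference, that of Cdkn1a included, was not tested.

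Of the 34 other replication genes 19 were lower in Ctrl and 29 in icKO mice and 0 higher, with Chek1 (-1.81), the S phase checkpoint kinase, Prim1 (-1.17) and Clspn (-1.89) first by p in Ctrl mice. Of the 42 other mitosis genes 26 were lower and 1 higher in Ctrl and 35 lower and 1 higher in icKO mice. The higher gene was Pttg1, encoding securin, in both genotypes (0.74 in Ctrl and 1.07 in icKO mice). The smallest p in Ctrl mice belonged to the condensin genes Ncapd2 (-1.44) and Smc2 (-1.39) and to Incenp (-1.27), a subunit of the chromosomal passenger complex. Among the D cyclins and their partners Ccnd1 (4.39) and Ccnd3 (0.72) were higher and Cdk4 (-0.75), Rbl1 (-0.59), Cdk6 (-0.94) and Myc (-0.49) lower in CNS Treg Ctrl. Btg1 (0.86) and Cdkn2d (0.70) were the antiproliferative genes called, both higher.

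**Figure D4:**
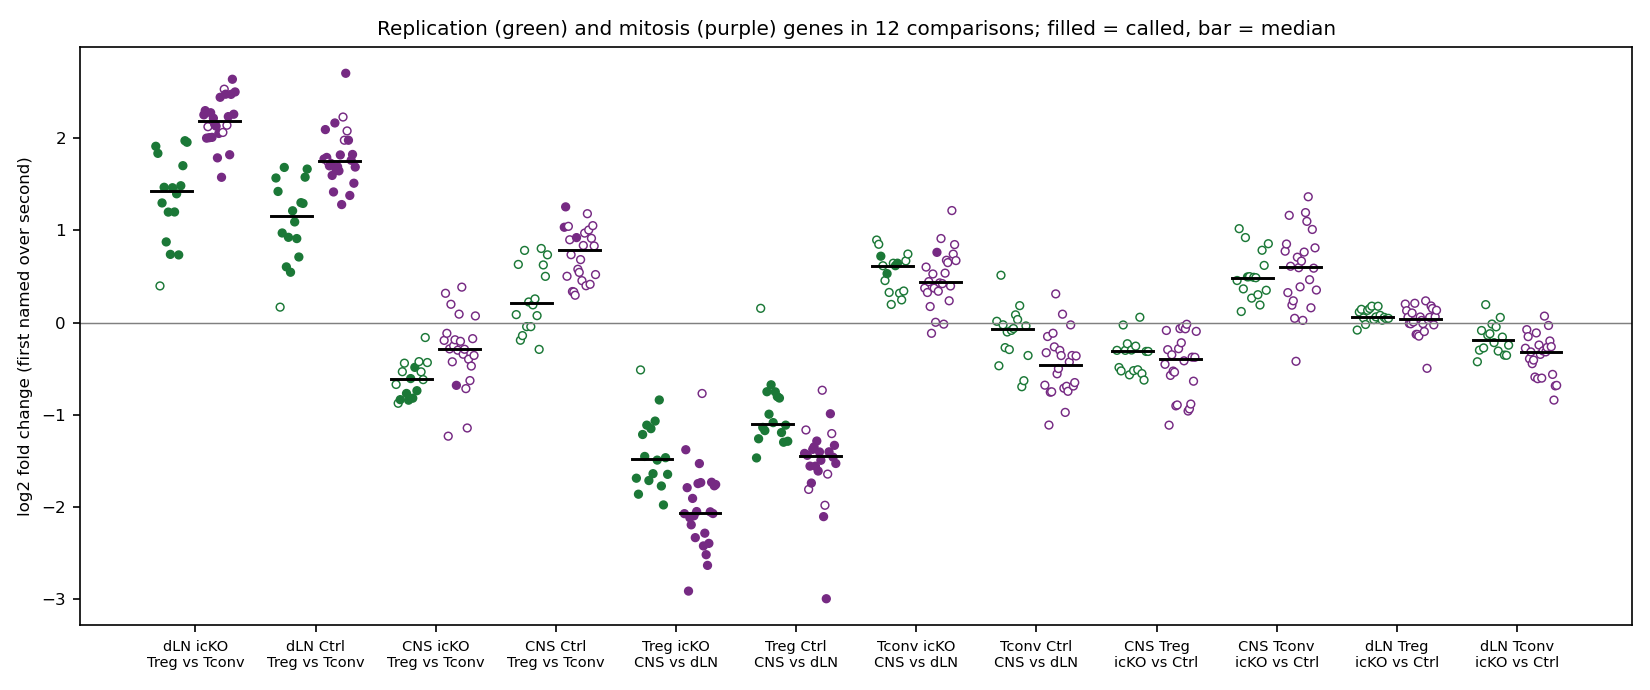
Log2 fold changes of the 16 replication genes (green) and 24 mitosis genes (purple) in 12 comparisons, each the first named group over the second. Filled points passed an adjusted p of 0.05 and bars are class medians, which run up to 2.18 for mitosis genes in dLN icKO and down to -2.06 in Treg icKO. The mitosis median lies farther from 0 than the replication median in both lymph node cell type comparisons and both Treg tissue comparisons, but in dLN icKO not with the 26th library (1.39 for mitosis and 1.44 for replication genes).

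The mean log2(CPM + 1) of mitosis genes minus that of replication genes was -1.04 to -0.76 in the 6 dLN Treg libraries and -2.79 to -1.15 in the other 19. The ranges did not overlap, so mitosis transcripts were highest relative to replication transcripts in dLN Treg. As a ratio of summed TPM, mitosis over replication was 0.874 to 1.03 in dLN Treg, 0.466 to 0.918 in CNS Treg, 0.282 to 0.645 in CNS Tconv and 0.426 to 0.693 in dLN Tconv libraries. On that scale dLN Treg overlapped with CNS Treg, through CNS Treg icKO replicate 2, and not with either Tconv population. No test was run on these class values, which are a description.

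The promoters of the classes differ in the motif words they hold. RefSeq windows of GRCm38.p6 that run from 250 bases before to 50 bases after the start of a gene were matched for 46 of the 57 members. An E2F word (TTTGGCGC, TTTGCCGC, TTTCGCGC or TTTCCCGC, on either strand) was in 7 of 14 replication promoters, 1 of 19 mitosis promoters (5.26%) and 704 of 27025 promoters in all (2.6%). A CHR word (TTTGAA or TTCGAA, on either strand) was in 3 of 14 replication promoters (21.4%), 14 of 19 mitosis promoters (73.7%) and 21.7% of all promoters. The CCAAT box was in 71.4% of replication, 84.2% of mitosis and 41.1% of all promoters, and words of different motifs overlapped at 2 places in the members' windows. The windows of 11 members held none of these words, those of Tyms, Dut, Birc5, Nusap1, Cit, Ccne1, Cdkn1a, E2f1, Mybl2, Plk4 and G2e3. A match is a description of letters and no record of binding.

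**Figure D5:**
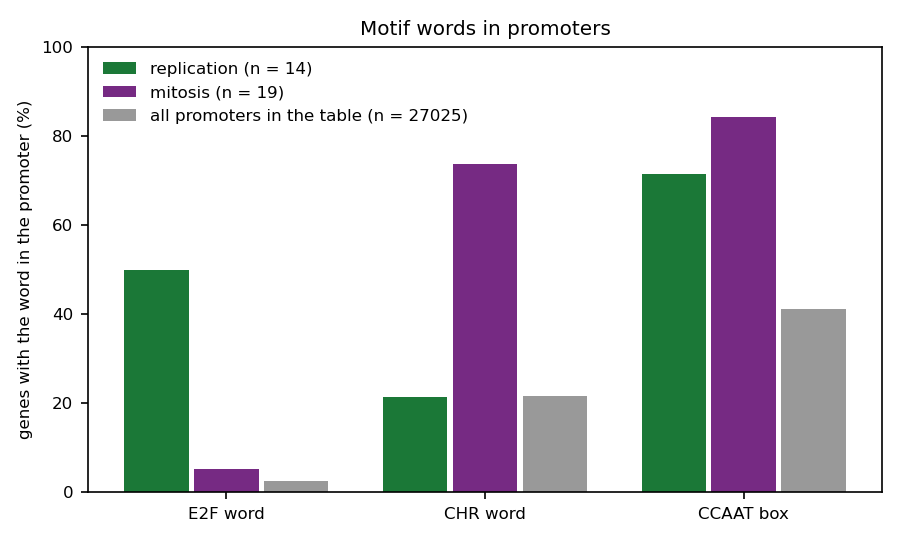
Share of genes whose promoter window holds an E2F word, a CHR word or a CCAAT box, in percent, for 14 replication genes, 19 mitosis genes and all 27025 promoters of the table. E2F words were in 7 of 14 replication promoters and 2.6% of all, and CHR words in 73.7% of mitosis promoters.

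The following windows are shown because they hold the words that set the classes apart. Among genes whose shown bases hold the word of their class, those with the smallest p in dLN Treg against dLN Tconv of Ctrl mice were taken. Each runs 5′ to 3′ along the gene's strand and is 200 bases long, from RefSeq on GRCm38.p6. Capitals mark E2F words in the replication genes Mcm6 (chr1:128359676-128359875, minus strand), Mcm5 (chr8:75109339-75109538, plus strand) and Mcm3 (chr1:20820283-20820482, minus strand). They mark CHR words in the mitosis genes Cdk1 (chr10:69352883-69353082, minus strand), Kif23 (chr9:61946770-61946969, minus strand) and Cenpa (chr5:30666716-30666915, plus strand), and in Cdk1 also an E2F word upstream of the CHR words.
Mcm6: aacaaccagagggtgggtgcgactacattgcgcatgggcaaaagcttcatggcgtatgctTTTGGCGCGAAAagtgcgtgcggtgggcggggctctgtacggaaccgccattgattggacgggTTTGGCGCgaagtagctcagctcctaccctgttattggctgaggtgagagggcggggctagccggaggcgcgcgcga
Mcm5: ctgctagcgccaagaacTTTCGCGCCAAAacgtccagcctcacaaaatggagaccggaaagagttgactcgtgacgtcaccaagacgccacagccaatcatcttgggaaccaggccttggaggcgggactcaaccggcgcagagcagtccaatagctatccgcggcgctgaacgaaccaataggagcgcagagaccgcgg
Mcm3: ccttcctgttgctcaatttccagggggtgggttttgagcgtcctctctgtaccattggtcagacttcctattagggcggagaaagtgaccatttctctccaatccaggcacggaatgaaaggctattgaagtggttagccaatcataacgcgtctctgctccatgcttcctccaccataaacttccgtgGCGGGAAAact
Cdk1: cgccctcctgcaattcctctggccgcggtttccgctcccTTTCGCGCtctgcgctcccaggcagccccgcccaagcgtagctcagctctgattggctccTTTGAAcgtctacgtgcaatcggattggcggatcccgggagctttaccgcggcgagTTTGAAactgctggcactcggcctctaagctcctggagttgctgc
Kif23: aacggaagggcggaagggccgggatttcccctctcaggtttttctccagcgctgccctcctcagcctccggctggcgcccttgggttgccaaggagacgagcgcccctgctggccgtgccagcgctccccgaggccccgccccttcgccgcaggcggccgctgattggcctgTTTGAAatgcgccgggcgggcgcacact
Cenpa: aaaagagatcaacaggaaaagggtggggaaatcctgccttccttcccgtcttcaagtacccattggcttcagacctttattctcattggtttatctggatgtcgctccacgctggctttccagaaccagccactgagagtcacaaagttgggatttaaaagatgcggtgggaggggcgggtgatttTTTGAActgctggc
The helicase genes Mcm6 and Mcm5 each hold a pair of overlapping E2F words, 1 on either strand, upstream of the start, and the Mcm3 word in the bases shown lies just after it. In dLN Treg against dLN Tconv of Ctrl mice Mcm6, Mcm5 and Mcm3 had log2 fold changes of 1.09, 1.21 and 0.93, and Cdk1, Kif23 and Cenpa of 1.82, 1.38 and 1.28. The 6 genes were picked by p in this same comparison. That all 6 were called followed from the choice and says nothing about the words.

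Between tissues few members differed in Tconv cells. In Ctrl mice 0 members were higher and 1 lower in CNS Tconv than in dLN Tconv, against 5.97% of tested genes called higher and 2.93% called lower. The lower gene was G2e3, with 7.67, 10.1, 7.58 and 18.4 CPM in CNS and 30.6, 19.97 and 21.6 CPM in dLN libraries (log2 fold change -1.14 ± 0.35, adjusted p = 0.043). All 4 CNS libraries were below the dLN libraries, with CNS Tconv Ctrl replicate 4 the closest. At an unadjusted p under 0.05 there were 7 members and 3390 tested genes. The class medians were -0.07 for replication and -0.46 for mitosis genes. The count was 0 with the 26th library (1.1% of all genes), 2 without the 5 CNS Tconv libraries named above (medians -0.17 and -0.60), and 0 without any 1 of dLN Tconv Ctrl replicates 1, 2 and 3 or CNS Tconv Ctrl replicates 1 and 3, and 3 without CNS Tconv Ctrl replicate 4. Of the further lists Timeless (-1.15), a replication fork protein, and Cdk4 (-0.43) were lower, and Pttg1 (0.92), Cdc25b (0.97), Ccnd3 (0.79) and Tob1 (0.86) higher.

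In icKO mice 8 members were higher in CNS Tconv than in dLN Tconv and 0 lower, against 7.81% and 6.3% of tested genes. Cdkn1a differed most, by 3.61 ± 0.64 on the log2 scale (adjusted p = 0.00047). Mcm2 had 219, 269.8, 228 and 238 CPM in CNS and 166 and 165 CPM in dLN libraries (0.53 ± 0.15, adjusted p = 0.016), and the CNS libraries all lay above both dLN libraries. Mcm7 (0.64), Mcm6 (0.62), Cdt1 (0.72), E2f1 (1.46), Plk4 (0.81) and Cdca2 (0.76) were the others. The medians were 0.62 for replication and 0.44 for mitosis genes, and the dLN group held 2 libraries. With the 26th library 4 members were called (9.24% of all genes), and the mitosis median was -0.25. Without dLN Tconv icKO replicate 1 or 2 that median was 0.18 or 0.83. Without the 5 CNS Tconv libraries whose table names conflict, CNS Tconv icKO held replicate 1 alone. The medians were then 0.41 for replication and 0.82 for mitosis genes, so the order of the classes was the reverse. The count was 3 or 4 without CNS Tconv icKO replicate 2 or 3. Of the further lists Gmnn (0.89) and Lig1 (0.96), a DNA ligase, were the 2 replication genes called, both higher, and of the mitosis genes 3 were higher and 1 lower, with the smallest p for Prc1 (1.37) and Smc4 (-0.64).

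Whether the tissue difference itself differed between the cell types was tested in Ctrl mice as an interaction. It was called for 5 members, all with the more negative value in Treg, against 1.12% of tested genes called in that direction and 2.55% in the other. These were Dut (-1.11 ± 0.28, adjusted p = 0.026), Cit (-2.30 ± 0.58, adjusted p = 0.027), Pcna (-1.002 ± 0.25, adjusted p = 0.030), Cks2 (-1.56 ± 0.40, adjusted p = 0.031) and Mcm6 (-0.83 ± 0.23, adjusted p = 0.047). The remaining 52 members were not shown to differ, and the class medians were -0.84 for replication and -0.98 for mitosis genes. In the fit of 26 libraries the count was 0 (0.0919% of all genes). It was 0 without CNS Treg Ctrl replicate 1 or 2, CNS Tconv Ctrl replicate 2, dLN Treg Ctrl replicate 1 or 3 or dLN Tconv Ctrl replicate 2, 1 without dLN Tconv Ctrl replicate 1 or 3, 9 without CNS Tconv Ctrl replicate 1 and 19 without CNS Treg Ctrl replicate 3. Without the 5 libraries with conflicting table names it was 6, with medians of -0.79 and -0.78.

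Within the CNS fewer members were called between cell types. In Ctrl mice 6 of 57 members were higher in Treg and 0 lower, against 10.8% and 7.03% of tested genes, so the share of members called higher was close to that of all tested genes. Cdkn1a (2.52 ± 0.46, adjusted p = 0.00055), Cdca2 (0.92 ± 0.21, adjusted p = 0.0036) and Plk4 (0.88 ± 0.22, adjusted p = 0.0082) came first, followed by G2e3 (1.005), Aurka (1.03) and Aurkb (1.26), the kinase of the chromosomal passenger complex. Cdca2 had 23.9, 18.8 and 32.5 CPM in CNS Treg Ctrl and 12.8, 12.99, 12.7 and 14.5 CPM in CNS Tconv Ctrl libraries, with all Treg libraries above all Tconv libraries. The medians were 0.21 for replication and 0.78 for mitosis genes. In the fit of 26 libraries the count was 1 (6.08% of all genes). It was 3 without CNS Treg Ctrl replicate 1 or 3 or CNS Tconv Ctrl replicate 1 or 3, 14 without CNS Treg Ctrl replicate 2, and 5 without the 5 libraries with conflicting table names (medians 0.24 and 0.95). Monocyte and macrophage markers summed to at least 2250 CPM in every CNS Treg library and to at most 773 CPM in every CNS Tconv library (without Ccr2, at least 1856 and at most 109 CPM), and neutrophil markers to at least 58.5 CPM in CNS Treg and at most 1.97 CPM in CNS Tconv libraries. Their part in the cell type differences was not tested. Of the further lists, 2 replication genes (Rfc3 at 0.85 and Chaf1b at 0.88) and 3 mitosis genes (Anln at 1.80, Smc4 at 0.46 and Pbk at 1.32) were higher in Treg and 0 lower. Ccnd3 was lower (-0.67), and of the antiproliferative genes 3 were higher and 3 lower, with the smallest p for Tob1 (-1.10), Ccng2 (0.56) and Cdkn1c (2.10).

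In icKO mice 12 members were lower in CNS Treg than in CNS Tconv and 0 higher, against 4.2% and 8.38% of tested genes. Of the 12, 7 were replication genes: Mcm2 (-0.77), Mcm3 (-0.84), Mcm7 (-0.74), Mcm4 (-0.61), Cdt1 (-0.84), Mcm5 (-0.82) and Mcm6 (-0.48). Mcm2 (chr6:88883474-88898780) had 144, 151 and 126 CPM in CNS Treg icKO and 219, 269.8, 228 and 238 CPM in CNS Tconv icKO libraries, a log2 fold change of -0.77 ± 0.13 (adjusted p = 0.00027). Every Treg library was below every Tconv library. Cdca2 (-0.68) was the 1 mitosis gene called, and Wee1 (-1.34), Ccne1 (-0.99), the cyclin E1 of S phase entry, Plk4 (-0.81) and G2e3 (-1.40) completed the list. The median was -0.61 for replication and -0.29 for mitosis genes. The count was 2 with the 26th library (3.42% of all genes). Without the 5 CNS Tconv libraries whose table names conflict, CNS Tconv icKO held replicate 1 alone. Plk4 was then at -1.25, G2e3 at -2.08 and Mcm2 at -0.65. The medians in that fit were -0.59 for replication and -0.49 for mitosis genes. Of the further lists Smc4 (0.75), Ccnd1 (2.82) and Cdkn1c (3.28), encoding p57, were higher, and Kif22 (-0.85), Ccnd3 (-0.68) and Tob1 (-1.22) lower, with 0 of 34 other replication genes called.

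The comparison of icKO with Ctrl asks what the floxed Tnfrsf1b genotype changes under tamoxifen. In CNS Treg 0 of 57 members were called in either direction, as were 0% of the 13500 tested genes. At an unadjusted p under 0.05 there were 10 members and 915 tested genes. The DESeq2 Wald test and limma with quality weights also called 0 members. Fold changes were negative for 55 members and positive for 2, with medians of -0.31 for replication and -0.40 for mitosis genes, beside -0.003 for all tested genes. The members come from the same libraries, so these signs are not separate observations. Mitosis genes summed to 557, 931 and 563 TPM in icKO and 921, 450.4 and 1422 TPM in Ctrl libraries. Ctrl replicate 2 thus lay below every icKO library. Cdca2 had the smallest p, with 12.9, 14.9 and 12.7 CPM in icKO and 23.9, 18.8 and 32.5 CPM in Ctrl libraries (log2 fold change -0.89 ± 0.23, adjusted p = 0.55). G2e3 had 9.66, 4.945 and 12.6 CPM in icKO and 22.9, 16.4 and 26.6 CPM in Ctrl libraries (-1.28 ± 0.38, adjusted p = 0.60), and Mcm3 had 93.6, 127 and 112 CPM in icKO and 129.7, 142 and 221 CPM in Ctrl libraries (-0.57 ± 0.17, adjusted p = 0.63). None of the 3 passed the adjustment over all genes. They were picked for the smallest p, so that their icKO libraries lay below their Ctrl libraries adds no evidence. Of the 4 further lists 0 genes were called. Markers of CD8 T and NK cells had summed levels of 295 to 613 CPM in icKO libraries, against 148 to 179 CPM in Ctrl libraries, and neutrophil markers to 58.5 to 471 CPM in icKO, where Mpo and Elane were at 0, and 252 to 809 CPM in Ctrl libraries. Their part in these fold changes was not tested.

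In CNS Tconv 4 members were higher in icKO and 0 lower, against 1.58% of tested genes called higher and 1.53% called lower. Plk4 (chr3:40800019-40816883) had 45.7, 30.1, 32.8 and 28.1 CPM in icKO and 16.96, 15.0, 13.8 and 19.5 CPM in Ctrl libraries (log2 fold change 1.07 ± 0.21, adjusted p = 0.0085). Cdkn1a was higher by 1.87 ± 0.44 (adjusted p = 0.024). Mcm2 had 219, 269.8, 228 and 238 CPM in icKO and 135, 177, 193 and 172 CPM in Ctrl libraries (0.50 ± 0.12, adjusted p = 0.024), and in these 3 genes the genotypes did not overlap. Wee1 (chr7:110122046-110143286) had 22.3, 32.2, 26.1 and 28.8 CPM in icKO and 7.45, 22.4, 12.3 and 12.1 CPM in Ctrl libraries (1.01 ± 0.26, adjusted p = 0.037), where Ctrl replicate 2 reached the icKO range. Fold changes were positive for 56 of the 57 members, with medians of 0.49 for replication and 0.60 for mitosis genes beside 0 for all tested genes. Here too the signs come from the same libraries and are not separate observations.

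Without the 5 CNS Tconv libraries whose table names conflict, icKO replicate 1 alone was set against Ctrl replicates 1 and 2. The medians were then 0.39 for replication and 0.96 for mitosis genes. Plk4 was at 1.53, Cdkn1a at 1.22, Mcm2 at 0.50 and Wee1 at 0.58. The count of called members was 0 in the fit of 26 libraries (0.0919% of all genes) and 1 without CNS Tconv Ctrl replicate 1 or icKO replicate 3. It was 2 without Ctrl replicate 3 or icKO replicate 4, 7 without Ctrl replicate 2 and 8 without Ctrl replicate 4. CNS Tconv Ctrl replicate 1 had the lowest summed level of mitosis genes of all 25 libraries, 231 TPM, and 3 members at 0. The 8 monocyte and macrophage markers summed to 589 to 773 CPM in CNS Tconv icKO, against 292 to 507 CPM in CNS Tconv Ctrl libraries. Most of this was Ccr2, a chemokine receptor that T cells also carry, with 570.1, 608, 547 and 684 CPM in icKO and 313, 349.9, 453 and 186 CPM in Ctrl libraries. The other 7 markers overlapped, with sums of 18.6 to 109 CPM in CNS Tconv icKO, against 3.62 to 106 CPM in CNS Tconv Ctrl. Microglia markers summed to 209 to 309 CPM in the icKO group, against 153 to 435 CPM in the Ctrl group. Both lists were far higher in CNS Treg, and the part of these transcripts in the result was not tested. Among further cell cycle genes Chaf1a (1.22), Rfc3 (0.84), Chaf1b (0.95), Prc1 (0.87) and Cdk6 (0.93) were higher and Klf2 (-1.08), a factor of quiescent T cells, lower in icKO.

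In the lymph node 0 members were called between genotypes in either cell type, as were 0% of tested genes. At an unadjusted p under 0.05 there were 0 members in Treg and 1 in Tconv, among 146 and 197 tested genes, and the DESeq2 Wald test and limma called 0 members in both. In dLN Treg the class medians were 0.06 for replication and 0.04 for mitosis genes, and the smallest p belonged to Cit (-0.50), Mcm4 (0.18) and Mcm7 (0.18), each with an adjusted p of 1. Mcm7, at 257, 321 and 302 CPM in icKO and 281, 233 and 265 CPM in Ctrl libraries, overlapped between genotypes. In dLN Tconv the medians were -0.19 and -0.32 (-0.12 and -0.69 for mitosis genes without icKO replicate 1 and 2), and the smallest p belonged to Cdca2 (-0.61), Plk1 (-0.84), a mitotic kinase, and Mcm7 (-0.31), each with an adjusted p of 1. Including the 26th library, which had 2027 TPM of mitosis and 1071 TPM of replication transcripts, the mitosis median in dLN Tconv was 0.41. In both cell types 0 genes of the 4 further lists were called.

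Whether the genotype difference in the CNS differed between Treg and Tconv was tested as an interaction. The class medians were -0.79 for replication and -1.08 for mitosis genes (-0.71 and -1.34 without the 5 libraries with conflicting table names). The interaction was called for 4 members, all with the more negative value in Treg, against 0.0667% of tested genes called in that direction and 0.111% in the other. These were Cdca2 (-1.60 ± 0.30, adjusted p = 0.029), Plk4 (-1.69 ± 0.32, adjusted p = 0.029), Wee1 (-1.97 ± 0.39, adjusted p = 0.042) and G2e3 (-2.40 ± 0.50, adjusted p = 0.050, just under the threshold). Plk4 had 21.3, 21.2 and 15.8 CPM in CNS Treg icKO and 31.9, 22.3 and 35.7 CPM in CNS Treg Ctrl, and in CNS Tconv the icKO libraries were the higher ones. G2e3 (chr12:51348061-51376986) had 37.9, 14.2, 22.8 and 20.6 CPM in CNS Tconv icKO and 7.67, 10.1, 7.58 and 18.4 CPM in CNS Tconv Ctrl libraries, which overlap through Ctrl replicate 4. Without the 5 libraries with conflicting table names CNS Tconv icKO held replicate 1 alone. The values were then -1.96 for Cdca2, -2.15 for Plk4, -3.37 for G2e3 and -1.54 for Wee1. Replicate 1 had the highest Plk4 and G2e3 levels of the CNS Tconv icKO group. The DESeq2 Wald test called 11 members, limma with quality weights 0 and the fit of 26 libraries 0 (0% of all genes). The count was 0 without CNS Treg Ctrl replicate 2, CNS Treg icKO replicate 2, CNS Tconv Ctrl replicate 3 or CNS Tconv icKO replicate 1, 2 without CNS Tconv icKO replicate 3 or 4, and 7 without CNS Tconv Ctrl replicate 4.

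The 57 genes lie on 18 chromosomes, with 10 on chromosome 2, so they are no single locus. The exons of 12 members overlap those of another listed gene in the GENCODE annotation of GRCm38, 11 of them on the opposite strand. SMART-Seq libraries carry no strand, so reads of Mcm7, Cdc45, Gins2, Cdc20, Cdca8, Kif20a, Nusap1, Ube2c, Ccne2, Ccna2 and Cdk2 cannot be told apart from those of their antisense partners where exons overlap, nor those of Foxm1 from Tex52. The processed or near-identical copies Tyms-ps and Cks1brt are listed beside Tyms and Cks1b, whose counts are uncertain to that extent.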

How the data were processed

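RNA of purified CD4 T cells (NucleoSpin RNA XS) went into SMART-Seq v4 and Nextera libraries, per the labels' protocols. Reads were trimmed with Trimmomatic, mapped by STAR 2.5.3a onto mm10 and summarised by RSEM 1.2.28, per the submitters' processing notes. The deposited expected counts are the reads RSEM assigned to each gene, not normalised. The deposited TPM values come from the same RSEM output of the authors, corrected for gene length and library total.

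After rounding, these counts entered edgeR 4.0.16 (R 4.3.3): filterByExpr, TMM factors, 1 quasi-likelihood model of 8 group means and 14 contrasts, with Benjamini-Hochberg adjustment over all 13500 genes. CPM values are TMM-normalised, except the sums of cell type markers and the values of single markers other than Foxp3. Those are raw counts scaled to the library total. TPM values serve for levels between genes. SE was obtained as the size of the log2 fold change over the square root of F. P-values use 1 estimate of spread shared by groups whose spread differed. The library labelled dLN Tconv icKO replicate 3 was left out (common dispersion 0.142 without it and 0.364 with it, 13054 genes tested).

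The members and lists were chosen with earlier results of these data known. Named genes are Mki67, Pcna, Cdk1 and Cdkn1a in every group, up to 6 called members of a class with the smallest p, or the 3 members with the smallest p where 0 were called, up to 3 genes of each further list, and Tnfrsf1b and Foxp3 as label checks. Further list genes beyond 3, and G2e3, Cenpe, Cenpf, Bub1, Kif11, Cdt1, Cenpa and E2f1 where not called, were chosen after their values were seen. Alternatives were DESeq2 1.42.0 size factors inside edgeR, the DESeq2 Wald test, voom of limma 3.58.1 weighted by library quality, fits with no filter, a replicate block, all 26 libraries, leaving out 5 CNS Tconv libraries, and leaving out each library in turn. In CNS icKO cells same-numbered Treg and Tconv libraries deviated together (correlations 0.155, 0.291 and 0.255), so the numbers may pair these samples, and the block left that comparison's calls within 1.5 times. The procedure was tested on simulated data. Python 3.11.15, pandas 2.3.3 and matplotlib 3.10.9 searched promoters and drew the plots.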

Additional observations from a re-analysis of the deposited data

Results flagged for a closer look

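In groups of 4 libraries members, and the replication and mitosis TPM sums, were examined for 1 library far from the other 3. Of 118 such sets of values 10 had one, and chance gives about 1 in 20 for a single set. The sets come from the same libraries and are not independent, so the number flagged cannot be weighed against that rate. In CNS Tconv icKO replicate 4 the mitosis genes Ccnb1 (21.24 CPM, others 35.9 to 38.3), Cdk1 (24.59 CPM, others 50.3 to 54.1), Plk1 (23.15 CPM, others 43.7 to 45.01) and Ube2c (27.86 CPM, others 51.2 to 55.2) were low, and in replicate 2 Mcm6 (472.2 CPM, others 398.0 to 407) was high. In CNS Tconv Ctrl libraries Gins2 (6.711 CPM, others 9.14 to 9.47) and Ccnb1 (13.72 CPM, others 33.1 to 35.1) were low in replicate 1 and Foxm1 (12.24 CPM, others 17.3 to 18.3) was low in replicate 3. Cdca2 (14.54 CPM, others 12.7 to 12.99) was high in Ctrl replicate 4 and Cit (5.072 CPM, others 3.10 to 3.41) in Ctrl replicate 2.

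Some differences were themselves tested between groups. The icKO against Ctrl difference in the CNS was lower in Treg than in Tconv for Cdca2 (-1.6), Wee1 (-1.97), Plk4 (-1.69) and G2e3 (-2.4). The CNS against dLN difference in Ctrl mice was lower in Treg than in Tconv for Mcm6 (-0.83), Pcna (-1.0), Dut (-1.11), Cit (-2.3) and Cks2 (-1.56). All values are differences of log2 fold changes.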

How the results depend on the processing

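No called member changed direction under any alternative that was run. Of 238 calls of a member in a comparison, 235 were kept with DESeq2 size factors, 237 with the DESeq2 Wald test, 222 with limma quality weights, 231 without a filter, 228 with the replicate block and 48 with all 26 libraries. Over the fits that leave out 1 library 1114 of 1473 calls were kept. Calls without the 5 CNS Tconv libraries with conflicting names are not counted here, since CNS Tconv icKO then held replicate 1 alone.

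With all 26 libraries called members numbered 0 for CNS Tconv icKO against Ctrl, 9 and 16 for Treg Ctrl and Treg icKO between tissues, 0 and 4 for Tconv Ctrl and Tconv icKO between tissues, 1 and 2 for CNS Ctrl and CNS icKO between cell types, 6 and 11 for dLN Ctrl and dLN icKO between cell types, and 0 for both interactions. For icKO against Ctrl in CNS Treg, dLN Treg and dLN Tconv, all 26 libraries gave 0 called members (0% of all genes in each). The shared dispersion was higher with the added library. The DESeq2 Wald test gave 11 for CNS Tconv icKO against Ctrl, 3 for Tconv Ctrl between tissues and 11 for each interaction. Limma gave 14 for Tconv icKO between tissues, 1 for CNS Ctrl between cell types, and 0 and 15 for the genotype and tissue interactions. Without the 5 CNS Tconv libraries the count was 2 for Tconv Ctrl between tissues. For these settings the cause was not tested.

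The replicate block gave 3 for Tconv Ctrl between tissues and 10 for the tissue interaction and moved no other count by over 1.5 times. Of 34 same-numbered pairs 11 had a correlation above 0.1. The CNS icKO cell type comparison was the 1 comparison with all of 3 pairs above it.

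Leaving out 1 library at a time gave 0 to 0 called members for the genotype comparisons in CNS Treg, dLN Treg and dLN Tconv and 1 to 8 in CNS Tconv. Between tissues it gave 21 to 52 for Treg Ctrl, 49 to 55 for Treg icKO, 0 to 3 for Tconv Ctrl and 1 to 8 for Tconv icKO. Between cell types it gave 3 to 14 for CNS Ctrl, 8 to 12 for CNS icKO, 27 to 48 for dLN Ctrl and 12 to 48 for dLN icKO. It gave 0 to 7 for the genotype and 0 to 19 for the tissue interaction. The replication and mitosis medians of the 14 contrasts were recomputed in the alternative fits that involve them, which gave 386 values. Of these values 375 moved by less than the spread between replicates and 11 by more. With all 26 libraries the mitosis median changed sign in dLN Tconv icKO against Ctrl (0.41) and in Tconv icKO between tissues (-0.25). In dLN icKO between cell types it was then 1.39, below the replication median of 1.44. Groups of 2 to 4 libraries limit what a p can show.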
